A study of Sus scrofa with 4 samples.

Results

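The solute carriers are the membrane proteins that move nutrients, ions, vitamins and metabolites across the plasma membrane and the membranes of organelles without splitting ATP themselves. In the liver they take up amino acids, sugars, bile acids and vitamins from the blood, and those of the SLC25 family carry citrate, oxoglutarate, phosphate and nucleotides across the inner mitochondrial membrane. Among them are also the carriers of carnitine itself, which were left out here together with a few others: 6 genes (SLC2A8, SLC22A5, SLC25A20, SLC37A4, SLC27A1 and SLC27A6) were not counted. The genes described were those with a probe set annotated to 1 symbol that begins with SLC and a digit or with SLCO, to which MFSD2A and the probe set named SLC18A2 in the paper were added. This gave 119 of the 6766 genes counted on the array (those with a probe set of 1 symbol, and SLC18A2), measured by 177 of 23999 probe sets, and each gene was represented by its probe set with the highest mean log2 signal. The rule itself reads symbols and no measured value, but it was drawn up, with its exclusions, when results of these arrays were known. MFSD2A and SLC18A2 were added by name, and their values are given as a description.

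Livers came from male crossbred pigs, (German Landrace x Large White) x Pietrain, 7 weeks old at the end of a feeding period of 21 days that began at 4 weeks of age and about 10 kg body weight. The carnitine group ate a basal diet with 500 mg of L-carnitine added per kg, and the control group ate that basal diet, which is low in native carnitine. Livers were taken 2.5 h after the last meal. Each array carried pooled liver RNA of 4 pigs, and 2 carnitine pools and 2 control pools were run on single-colour Affymetrix porcine arrays, so that 8 pigs per diet stand behind 4 arrays. The spread among single pigs is not visible in pools, and the number of arrays limits the precision. With 2 pools against 2, an exact two-sided permutation test cannot go below p = 0.333, so differences were tested with limma across all probe sets. Values are MAS5 signals in arbitrary units on a linear scale. They compare diets for the same probe set and not one gene with another.

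The median signal of the arrays was 109 and 113 in the carnitine pools and 114 in both control pools. All 15 hepatocyte markers were measured above the median signal of all probe sets, and their summed signals were 468850 and 431987 with carnitine against 509450 and 467156 on the control diet. Control pool 2 stood apart in markers of some other cells: 9 of 10 stellate cell and fibroblast markers summed to 4813 and 4561 with carnitine against 3603 and 12357 on the control diet, and 5 of 7 cholangiocyte markers to 1769 and 1311 against 1240 and 7364. In that pool ACTA2 alone gave 5533 and SPP1 alone 6231, whereas COL1A2 (345) was lowest there. Sums of endothelial and red cell markers were also highest in control pool 2. Those of macrophages, T and NK cells, and B and plasma cells were lower there than in control pool 1. The 3'/5' signal ratio, a sign of RNA quality, was higher in both carnitine pools for 2 GAPDH controls (18.7 and 16.1 with carnitine against 12.5 and 11.6 on the control diet, and 43.1 and 22.9 against 20.1 and 19.4) and for an actin control (157 and 136 against 91.2 and 86.7). A further GAPDH control (9.65 and 11.1 against 10.2 and 9.04) and a further actin control (0.332 and 1.05 against 0.366 and 0.220) gave overlapping ratios. So did an ef1a control (23.4 and 29.6 against 57.9 and 18.2). The dap and thr controls are not liver transcripts, so that their ratios do not read the quality of the liver RNA. Their ratios were lower in both carnitine pools, for example 16.5 and 9.54 against 21.9 and 22.8 for DapX. The part of these in the results was not tested. Fewer cells of a type and less RNA per cell cannot be told apart in such tissue.

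None of the 119 solute carriers passed an adjusted p under 0.05 (limma, Benjamini-Hochberg over all probe sets), against 1 probe set of 23999 on the whole array (0.00417%). At an unadjusted limma p under 0.05, called a nominal difference from here on, 6 were higher and 5 lower in the carnitine pools, which is 5.04% and 4.20% of the solute carriers against 4.72% and 3.93% of all probe sets. Over all genes by their brightest probe set the shares were 6.56% and 4.01%. The 11 solute carriers include MFSD2A and SLC18A2, and without these 5 of 117 genes (4.27%) were higher and 4 (3.42%) lower. The shares lay close to those of the whole array. By the one-factor analysis of variance 0 genes passed the adjusted p as well, with 2 nominally higher and 4 lower, against 3.56% and 3.45% of all probe sets by that test. Of the 11 genes only SLC18A2 and SLC25A11 kept an unadjusted p under 0.05 by that test, and 5 did by limma without a variance trend. A difference of at least 2-fold in all 4 pairwise comparisons of pools was found upward for 0 solute carriers, against 1.78% of all probe sets, and downward for 2, SLC18A2 and SLC23A1, or 1.68% against 1.63% of all probe sets and 0.783% of genes by their brightest probe set. Without SLC18A2 and MFSD2A only the dim SLC23A1 remained, 1 of 117 genes (0.855%). The 2 pools of each diet did not overlap for 22 genes with higher and 22 with lower signals in the carnitine pools, 18.5% each, against 19.2% and 20.4% of all probe sets. Without MFSD2A and SLC18A2 these were 21 genes each. The median log2 difference, carnitine minus control, was -0.04 over the solute carriers and -0.02 over all probe sets, and 51 genes were above 0 and 68 below. Of the 119 genes, 81 had a mean signal above the median of all probe sets and 38 below it, and the median differences of these were -0.03 and -0.09.

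**Figure D1:**
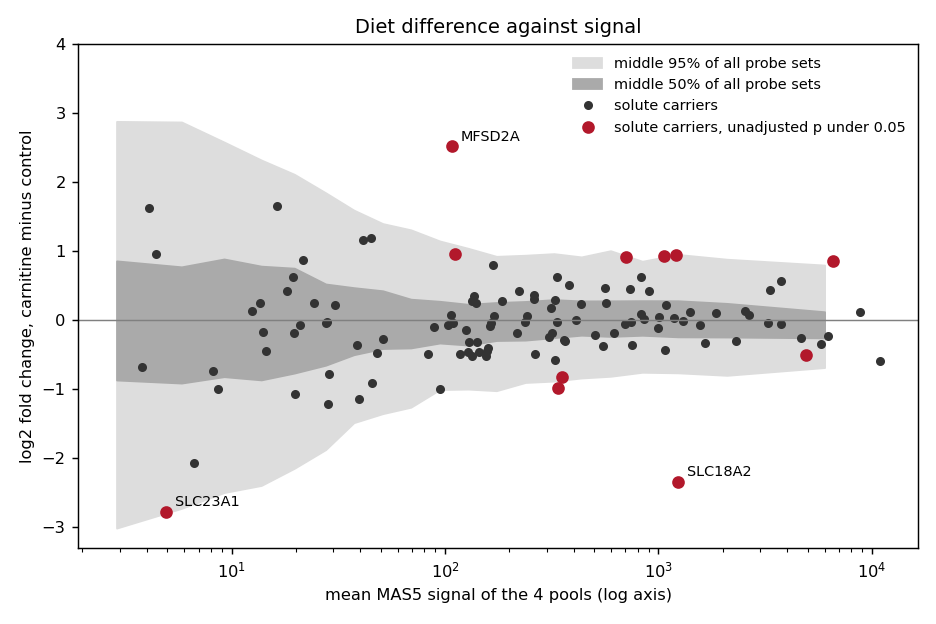
Log2 difference, carnitine minus control, of the 119 solute carriers (points) against their mean MAS5 signal on a log axis, over bands that hold the middle shares of all probe sets at that signal. SLC18A2, at -2.34, lies far below the bands at its signal, MFSD2A lies above them at 2.52, and SLC23A1 lies at the dim end, where the bands are widest.

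SLC18A2 is the vesicular monoamine transporter VMAT2, which loads serotonin, dopamine and histamine into storage vesicles. The array's annotation lists no gene for this probe set, so that the name rests on the paper alone. Its signals were 604 and 500 with carnitine against 2844 and 2719 on the control diet. The pools of each diet were close to each other and the diets lay far apart, with a log2 difference of -2.34 ± 0.20 (SE), or 5.06-fold lower signals. No other solute carrier above the median signal differed by as much as 2-fold in its mean. MFSD2A takes up lysophosphatidylcholine with its fatty acid into cells. Its signals were 140 and 475 with carnitine against 93.0 and 21.7 on the control diet, a log2 difference of 2.52 ± 0.81 (SE). The mean log2 signal of MFSD2A lay below the median of all probe sets. The pools did not overlap, but those of each diet differed more than 3-fold among themselves, and the log2 difference was 1.52 once an offset of 64 was added to every signal. It came to 1.64 when carnitine pool 2 was left out and to 1.47 when control pool 2 was.

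**Figure D2:**
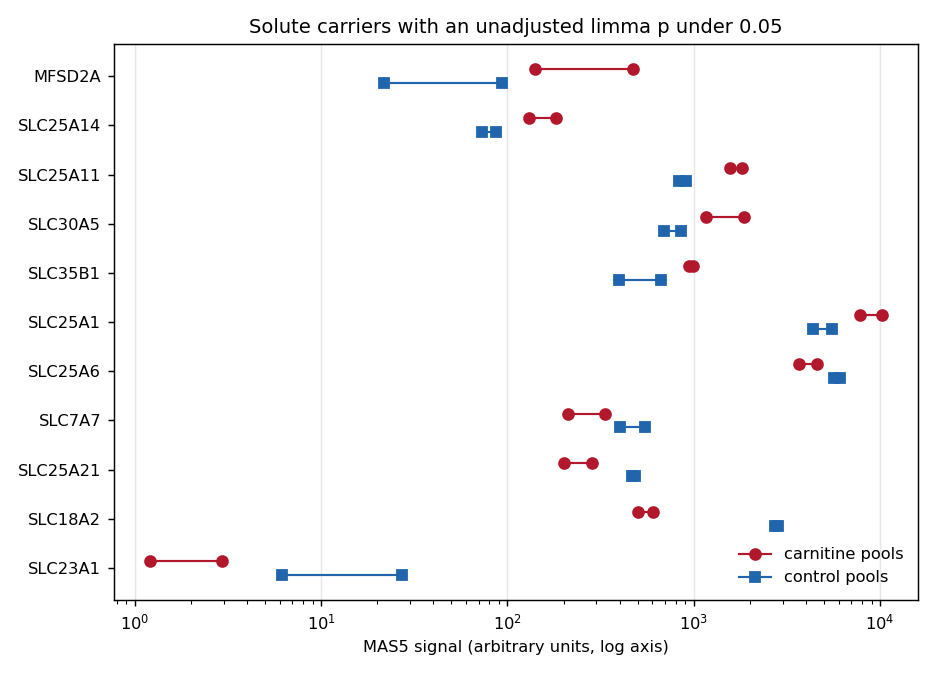
MAS5 signals on a log axis of the 11 solute carriers with an unadjusted limma p under 0.05, with a row for each gene, the 2 carnitine pools in red above the 2 control pools in blue, with lines between pools that share a diet. The pools of the diets do not overlap for any of the 11, and the widest gap relative to the spread is that of SLC18A2, with 604 and 500 against 2844 and 2719.

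The SLC25 carriers, with 20 genes, held 5 of the 11 nominal differences, 3 higher and 2 lower. Over all genes by their brightest probe set 6.56% were nominally higher and 4.01% nominally lower. The pools were separate upward for 21.5% of all these genes and downward for 21.0%. Counts of this and the following classes are to be read beside those shares. SLC25A11 exchanges oxoglutarate for malate across the inner mitochondrial membrane, as part of the malate-aspartate shuttle. Its signals were 1569 and 1806 with carnitine against 838 and 910 on the control diet. The diets were well separated, with 1.93-fold higher signals in the carnitine pools (log2 difference 0.95 ± 0.20, SE; limma adjusted p = 0.334). SLC25A1 exports citrate from mitochondria, the source of cytosolic acetyl-CoA for the synthesis of fatty acids and sterols. It gave 7759 and 10229 with carnitine against 4352 and 5521 on the control diet, 1.82-fold higher (0.86 ± 0.22, SE; limma adjusted p = 0.399). SLC25A14, an inner membrane carrier also known as UCP5, was measured close to the median signal, at 131 and 183 with carnitine against 73.1 and 86.8 on the control diet (0.96 ± 0.39, SE; limma adjusted p = 0.554). The interval of its difference reached down to 0.05.

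The carriers with nominally lower signals in this family were SLC25A21 and SLC25A6. SLC25A21 carries oxoadipate and oxoglutarate, intermediates of lysine and tryptophan breakdown. Its signals were 285 and 201 with carnitine against 465 and 483 on the control diet, 1.98-fold lower in the carnitine pools (log2 difference -0.99 ± 0.28, SE; limma adjusted p = 0.422). SLC25A6 is an ADP/ATP carrier of the inner membrane, at 4615 and 3664 with carnitine against 6077 and 5642 on the control diet (-0.51 ± 0.20, SE; limma adjusted p = 0.535). Its paralogs lay on the other side of 0, and whether they differ from it was not tested. SLC25A5 gave 912 and 1208 with carnitine against 872 and 698 on the control diet (0.43 ± 0.24, SE), and SLC25A4 gave 9190 and 9084 against 7250 and 9791, with overlapping pools (0.12 ± 0.21, SE). The ADP/ATP carriers are very similar in sequence, and cross-hybridization among their probe sets was not tested. The phosphate carrier SLC25A3, the partner of ADP/ATP exchange in ATP synthesis, had 4915 and 5328 with carnitine against 6300 and 6678 on the control diet, without overlap (-0.34 ± 0.18, SE; limma adjusted p = 0.651).

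Of the other SLC25 genes, the iron carrier SLC25A37 (mitoferrin-1) had higher signals in both carnitine pools, 1020 and 721 against 674 and 586, but another probe set above the median signal overlapped, at 393 and 268 against 522 and 225 (log2 difference -0.08). The pools of the glycine carrier SLC25A38 and of SLC25A39 overlapped, with log2 differences of -0.38 and 0.03. These 3 serve heme and iron handling also in red cell precursors, and the 4 measured of 8 red cell markers summed to 1267 and 781 with carnitine against 1534 and 2162 on the control diet. The part of red cells in these values was not tested. The peroxisomal carrier SLC25A17 gave 2470 and 2997 with carnitine against 2937 and 2286 on the control diet, an overlap. Over all 20 genes the median log2 difference was 0.05, with 11 above 0 and 9 below. The pools were separate upward for 5 genes and downward for 6, so that the family showed no common direction.

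**Figure D3:**
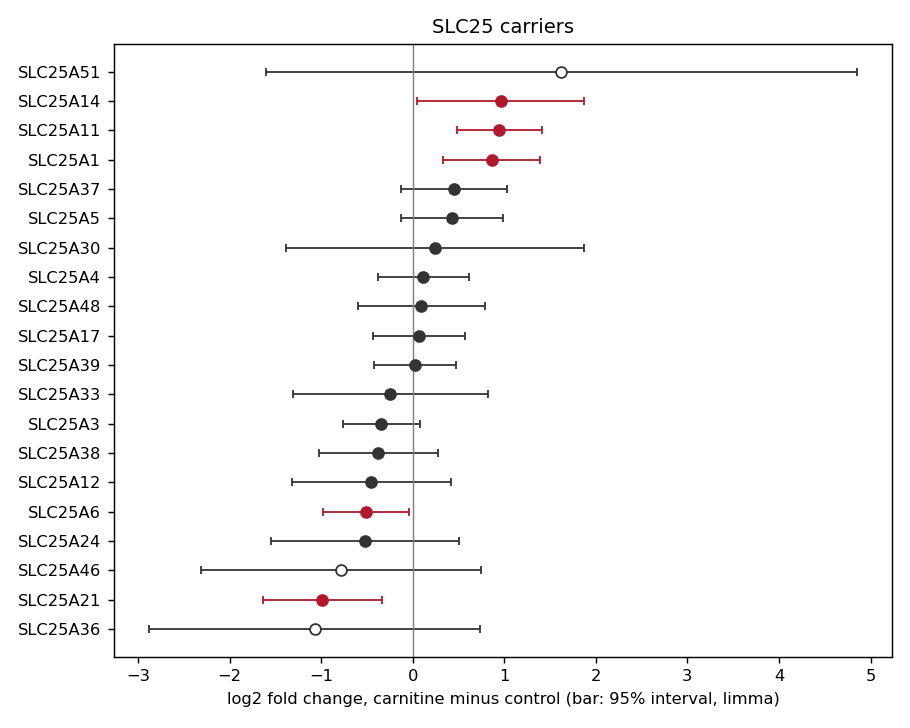
Log2 differences, carnitine minus control, of the 20 SLC25 genes in order of size, with 95% intervals from limma, red where the unadjusted p was under 0.05 and open where the mean signal was below the median of all probe sets. SLC25A14, SLC25A11 and SLC25A1 lie at 0.86 to 0.96 and SLC25A21 and SLC25A6 at -0.99 and -0.51, while the intervals of the other 15 span 0.

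Carriers of amino acids and peptides numbered 19, with 0 nominally higher and 1 nominally lower. SLC7A7 (y+LAT1) exports arginine, lysine and ornithine in exchange for neutral amino acids. It had 334 and 210 with carnitine against 549 and 403 on the control diet, without overlap (log2 difference -0.83 ± 0.32, SE; limma adjusted p = 0.534). Its other probe set was dim and lay in the other direction (0.50), and the mean over both gave -0.17. SLC3A2, the heavy chain that brings SLC7A7 and related transporters to the membrane, had 490 and 420 with carnitine against 378 and 268 on the control diet (0.51 ± 0.27, SE; limma adjusted p = 0.661). Heavy chain and light chain thus lay on opposite sides of 0, each with separate pools, and neither passed the adjusted p. Without control pool 2 the difference of SLC3A2 came to 0.26. SLC1A2, a glutamate transporter of high affinity, had separate pools too, with 176 and 278 with carnitine against 117 and 138 on the control diet (0.80 ± 0.36, SE; limma adjusted p = 0.593). The cationic amino acid transporter SLC7A1 had a log2 difference of 0.42 ± 0.30 (SE).

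The glutamine transporter SLC1A5 showed 416 and 404 with carnitine against 448 and 377 on the control diet. Its log2 difference of -0.0040 ± 0.24 (SE) had a 95% interval of -0.56 to 0.56, and its sign depended on the scaling of the arrays. The orphan SLC38A10, with 1606 and 1326 with carnitine against 1388 and 1303 on the control diet, and the peptide transporter SLC15A2, with 634 and 698 against 691 and 1045, overlapped between diets. The median over the 19 genes was -0.03, with 8 above 0 and 11 below, and 12 genes overlapped between diets. The median over all probe sets was -0.02.

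The lowest class median with more than 1 gene was that of the 7 carriers of organic cations, amines and choline, at -0.49. It held SLC18A2, and 3 of its 7 genes (SLC18A2, SLC44A2 and SLC22A3) had separate pools with lower signals in the carnitine group. Over all genes by their brightest probe set 21.0% did. SLC18A2 was added by name with its value known, so that this count and the class median are a description. The choline transporter-like protein SLC44A2 had 297 and 241 with carnitine against 369 and 430 on the control diet (log2 difference -0.58 ± 0.26, SE; limma adjusted p = 0.601). SLC22A3 (OCT3), a polyspecific transporter of organic cations, had 101 and 97.8 with carnitine against 134 and 144 on the control diet (-0.49 ± 0.35, SE; limma adjusted p = 0.737). The creatine transporter SLC6A8, at 1412 and 960 with carnitine against 942 and 1066 on the control diet, overlapped. SLC44A4 was dim in 3 pools and high in control pool 2, with 17.6 and 19.8 with carnitine against 9.99 and 187 on the control diet, beside that pool's cholangiocyte and stellate markers. The part of those cells in its value was not tested.

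Bile acid and organic anion carriers, 7 genes, had a median log2 difference of -0.33 and no nominal difference. SLC10A1 (NTCP), which takes up conjugated bile acids with sodium from portal blood, had 11662 and 6818 with carnitine against 10037 and 18009 on the control diet. The diets overlapped and control pool 2 was the highest, with a log2 difference of -0.59 ± 0.35 (SE) and a 95% interval of -1.42 to 0.23. Leaving out control pool 2 gave -0.17 and leaving out control pool 1 gave -1.01. SLCO2B1, an organic anion transporter of the sinusoidal membrane, had separate pools in the other direction, with 5049 and 4157 with carnitine against 2375 and 4026 on the control diet (0.57 ± 0.28, SE; limma adjusted p = 0.625). Its difference came to 0.19 without control pool 1 and to 0.95 without control pool 2. Without control pool 1 the class median turned to 0.05. The urate and phosphate transporter SLC17A1 overlapped, with 1419 and 1529 with carnitine against 2414 and 1423 on the control diet.

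Vitamin and nucleoside carriers, 10 genes, had a median of -0.05. The multivitamin transporter SLC5A6, which takes up biotin and pantothenate, had 3784 and 3959 with carnitine against 3220 and 2557 on the control diet. Its pools were separate, with 1.35-fold higher signals (log2 difference 0.43 ± 0.20, SE, 95% interval -0.03 to 0.89). The folate transporter SLC46A1 was separate in the other direction, with 825 and 1034 with carnitine against 1130 and 1369 on the control diet (-0.43 ± 0.22, SE; limma adjusted p = 0.641). Its 2 probe sets averaged to 0.09, but the other one was dim and overlapped (0.61 ± 0.49, SE). SLC23A1, an ascorbate transporter, gave 1.21 and 2.95 with carnitine against 27.1 and 6.14 on the control diet, and was named after its values were seen. All 4 values lay far below the median signal, and when values under the 25th percentile of their array were set to it the log2 difference of -2.77 became -0.05, so that no change can be read from it.

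Metal ion carriers, 13 genes, had 1 nominally higher member, SLC30A5, which moves zinc into the Golgi. Its signals were 1157 and 1857 with carnitine against 857 and 696 on the control diet (log2 difference 0.92 ± 0.27, SE; limma adjusted p = 0.440). Another probe set of the gene, also above the median signal, gave 490 and 459 with carnitine against 517 and 316 on the control diet, with overlap (0.23). The mean over its 3 probe sets was 0.05, but it included a dim probe set at -1.01 ± 1.25 (SE). The pools of 9 metal carriers were separate, 5 higher and 4 lower. Over all genes by their brightest probe set 21.5% were separate upward and 21.0% downward. The iron transporter SLC11A2 (DMT1) was among the higher, with 925 and 1134 with carnitine against 486 and 909 on the control diet, and the zinc importer SLC39A5 among the lower, with 6317 and 5221 against 6462 and 7022 (-0.23 ± 0.19, SE). Another SLC39A5 probe set above the median signal overlapped, at 429 and 472 with carnitine against 597 and 388 on the control diet (-0.10). The copper importer SLC31A1, at 4718 and 3880 with carnitine against 4387 and 5967 on the control diet, and the zinc and iron importer SLC39A14, at 808 and 930 against 1109 and 656, overlapped. The class median was -0.07.

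Among the 11 carriers of nucleotide sugars and other Golgi or ER substrates, all above the median signal, 1 was nominally higher. SLC35B1, which brings ATP into the ER, had 992 and 943 with carnitine against 669 and 396 on the control diet (log2 difference 0.91 ± 0.28, SE; limma adjusted p = 0.460). SLC35A4 was also separate, with 526 and 327 with carnitine against 239 and 301 on the control diet (0.63 ± 0.31, SE; limma adjusted p = 0.631). SLC35C1, a carrier of GDP-fucose, was separate in the other direction, with 104 and 153 with carnitine against 158 and 157 on the control diet (-0.32 ± 0.36, SE). Of the 11 genes 7 lay between -0.11 (SLC35A3) and 0.05 (SLC35C2) on the log2 scale. SLC35F5, with 3290 and 3164 with carnitine against 3406 and 3217 on the control diet (-0.04 ± 0.18, SE), turned to 0.0014 with arrays centred on their medians. SLC35D2, a carrier of nucleotide sugars, had 1738 and 1351 with carnitine against 1929 and 1332 on the control diet.

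Sugar and inositol carriers, 13 genes, held no nominal difference. SLC2A2 (GLUT2), the glucose transporter of hepatocytes, had 456 and 482 with carnitine against 747 and 392 on the control diet. The control pools enclosed the carnitine pools, and the 95% interval of the log2 difference of -0.21 ran from -0.98 to 0.56. SLC2A1 (GLUT1) overlapped as well, with 348 and 318 with carnitine against 356 and 244 on the control diet (0.17 ± 0.29, SE). SLC45A2, a melanosomal protein grouped here by its family, had 278 and 396 against 321 and 358. Of the 13 genes 10 lay below 0, with a median of -0.14, and the 3 with separate pools, all lower in the carnitine pools, were below the median signal.

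The 13 carriers of inorganic ions overlapped between diets without exception, at a median of -0.04. The sulfate transporter SLC26A11 had 196 and 253 with carnitine against 239 and 408 on the control diet (log2 difference -0.49 ± 0.35, SE), and the chloride and bicarbonate exchanger SLC4A2 had 347 and 253 against 261 and 202 (0.37 ± 0.30, SE). Intervals this wide do not show that the diets were alike. The monocarboxylate family had 2 members, SLC16A13 with 615 and 714 with carnitine against 339 and 680 on the control diet, and the lactate exporter SLC16A3, which was dim, with 24.6 and 30.4 against 35.2 and 22.4. Both overlapped. The symbols SLC2A4RG, SLC9A3R1 and SLC9A3R2 belong to a transcriptional regulator and scaffold proteins and not to carriers. SLC2A4RG gave 3311 and 2169 with carnitine against 2639 and 2245 on the control diet, and SLC9A3R1 (NHERF1) gave 4148 and 3268 against 4098 and 3582, both overlapping.

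**Figure D4:**
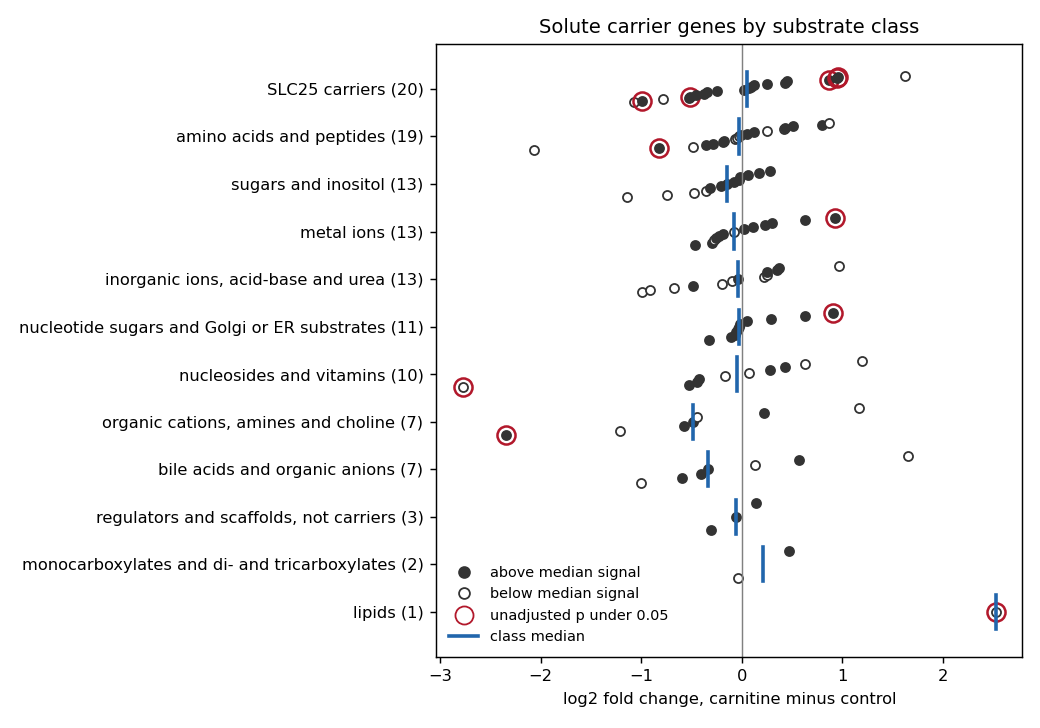
Log2 differences, carnitine minus control, of the 119 genes by substrate class (number of genes in brackets), with filled points above and open points below the median signal, red rings at an unadjusted p under 0.05 and a blue bar at the class median. Among classes of more than 2 genes the medians run from -0.49 for organic cations to 0.05 for the SLC25 carriers, and every class of more than 3 genes has members on both sides of 0.

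Class medians moved when 1 pool was left out. Those of the SLC25 carriers (-0.31 to 0.17), amino acids (-0.34 to 0.16), bile acids (-0.57 to 0.05), inorganic ions (-0.34 to 0.15), metal ions (-0.11 to 0.15), vitamins and nucleosides (-0.18 to 0.12) and Golgi or ER substrates (-0.08 to 0.13) lay on both sides of 0, and those of organic cations (-0.73 to -0.42) and sugars (-0.31 to -0.11) did not. Dim genes weighed on the medians too. Among genes above the median signal alone, the median was -0.03 for sugars and -0.53 for organic cations. It was 0.25 for inorganic ions and -0.43 for vitamins and nucleosides. With an offset of 64 the median of organic cations was -0.32.

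The dependence on single pools was marked for some of the 11 genes. All 11 kept their direction whichever pool was left out. That had to be so, because the pools of the diets did not overlap for any of them. Only the sizes of the differences could move. SLC18A2 ranged from -2.48 to -2.20 and SLC25A11 from 0.84 to 1.05. SLC30A5 came to 0.58 and SLC7A7 to -0.49 without carnitine pool 2, SLC35B1 to 0.53 without control pool 2, and SLC23A1 to -1.70 without control pool 1. The numbers of higher and lower nominal differences among the 119 genes were 5 and 5 without carnitine pool 1, 2 and 3 without carnitine pool 2, 9 and 11 without control pool 1, and 9 and 9 without control pool 2. The shares over all probe sets moved too, at 2.62% and 3.25% without carnitine pool 1, 1.49% and 2.61% without carnitine pool 2, 6.91% and 5.37% without control pool 1, and 7.57% and 4.94% without control pool 2.

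**Figure D5:**
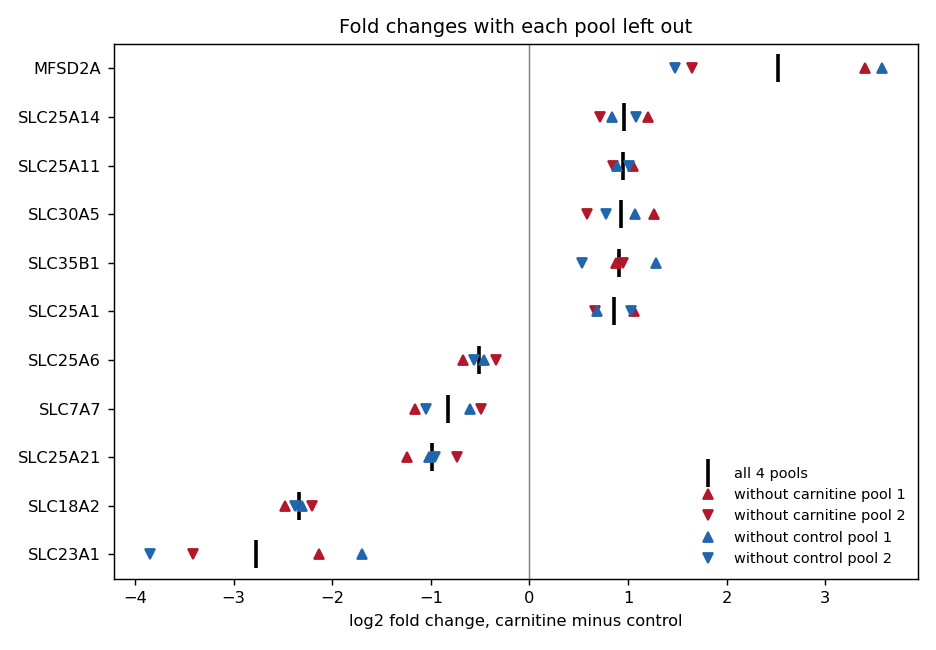
Log2 differences, carnitine minus control, of the 11 genes with an unadjusted p under 0.05, with all 4 pools (black bars) and with each pool left out in turn (red triangles for carnitine pools, blue for control pools). MFSD2A moves between 1.47 and 3.57, whereas SLC18A2 stays between -2.48 and -2.20.

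Genes with more than 1 probe set allow a check within the arrays. For 39 genes there were 58 further probe sets, and 32 of them had the sign of the gene's representative. Among the 14 further probe sets above the median signal 8 did. SLC46A3, a lysosomal carrier, had 196 and 209 with carnitine against 144 and 193 on the control diet by its representative, and 116 and 118 against 245 and 173 by another probe set (log2 differences 0.28 and -0.81). SLC33A1, which brings acetyl-CoA into the ER, had 1300 and 1298 with carnitine against 1489 and 1159 on the control diet by its representative, and 515 and 476 against 239 and 378 by another (-0.02 and 0.72). For such genes the direction depended on the probe set.

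A list of other transport proteins was set beside the solute carriers. It held ATP-driven pumps and ABC transporters, but also aquaporins, VDAC1, VDAC2, VDAC3, MPC1, MPC2 and RHBG, which are not driven by ATP. ABCF1, also on the list, is an ABC protein but not a transporter. Of 48 listed genes 31 were measured, with a median log2 difference of 0.11. Of these 4 were nominally higher, 2 nominally lower and 0 past the adjusted p (limma). Over all genes by their brightest probe set 6.56% were nominally higher and 4.01% nominally lower. ATP2A2, the calcium pump of the ER, had 5611 and 5301 with carnitine against 3272 and 2550 on the control diet (log2 difference 0.92 ± 0.20, SE; limma adjusted p = 0.348). ATP1B1, the beta subunit of the sodium pump, which maintains the gradient that sodium-coupled carriers use, had 7680 and 7376 with carnitine against 5047 and 4842 on the control diet (0.61 ± 0.18, SE; limma adjusted p = 0.430). Both had close pools within each diet. ABCA1, the cholesterol exporter, and ATP8B1, a phospholipid flippase of the canalicular membrane, were the other nominally higher genes (0.61 and 0.56), and ABCB1 (-0.53), which exports drugs, and ABCB6 (-0.90), a porphyrin transporter, were nominally lower. Of 26 listed regulators of hepatic transporter genes 16 were measured, with a median of -0.0025. FOXA1 (1.07) and CEBPA (0.86), both transcription factors of hepatocytes, were nominally higher, with 0 nominally lower and 0 past the adjusted p (limma). The shares over all genes just given stand beside these counts too.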

How the data were processed

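The authors deposited linear MAS5 signal intensities of single-colour Affymetrix porcine arrays, made with MAS5 5.0, GCOS 1.1.2 and Affymetrix Expression Console 1.1 per the submitters' processing notes. Of 24123 probe sets 124 controls were left out, and 23999 were tested as log2 signals, with no pseudocount or filter, by limma 3.58.1 in R 4.3.3 (lmFit, eBayes with a variance trend, Benjamini-Hochberg at 0.05, 2 residual degrees of freedom). The fit was tested on simulated data. The array's annotation named 1 gene for 10069 of them, more than 1 for 198 and no gene for 13732. It names no genome build, so no coordinates are given.

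The members and lists were chosen with earlier results of these data known. Named genes were MFSD2A and SLC18A2, the 2 members with the highest mean signal in each class, and 10 of 24 listed hepatic transporters that were members. Members with an unadjusted p under 0.05 were named too where the mean signal of the higher diet was above the median of all probe sets. This made 36 genes in all. Others (SLC1A2, SLC7A1, SLC44A2, SLC44A4, SLC11A2, SLC35A3, SLC35A4, SLC35C1, SLC35C2, SLC9A3R2, SLC23A1, SLC17A1, SLC33A1, SLC46A3, SLC25A3, SLC25A17, SLC25A37, SLC25A38 and SLC25A39) were chosen after their values were seen, as was the class of regulators. Pool numbers did not pair the arrays. Alternatives were quantile normalization, median centring, a floor at the 25th percentile, an offset of 64, a filter at the median, no variance trend, the methods' one-factor analysis of variance, a replicate block, the mean over probe sets, and leaving out each pool. Counts without SLC18A2, without SLC18A2 and MFSD2A, and without the 3 regulators were added after seeing the data.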

Additional observations from a re-analysis of the deposited data

How the results depend on the processing

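Counts of solute carriers depended on the setting. Past the adjusted p, 1 gene, SLC18A2, was found with a floor at the 25th percentile, a filter at the median signal and the replicate block, where limma passed 0.00833%, 0.025% and 0.442% of all probe sets, against 0 genes in the other settings. SLC18A2 was included with its value known, so this is a description. Nominal differences numbered 3 higher and 3 lower with no variance trend (3.54% and 3.48% of all probe sets) and 2 higher with the one-factor analysis of variance (3.56%). Leaving out 1 pool gave 2 to 9 higher and 3 to 11 lower (1.49% to 7.57% and 2.61% to 5.37% of all probe sets), and 1 to 6 higher and 4 to 7 lower at 2-fold in all remaining comparisons (3.85% to 6.88% and 4.87% to 5.98%), where fewer comparisons had to pass. With the floor, the offset of 64, the filter, the mean over probe sets, or without SLC18A2 (with or without MFSD2A), 1 gene was lower at 2-fold. The replicate block (deviations of same-numbered pools correlated at 0.0049, so the numbers do not pair the arrays) gave 7 higher and 5 lower (5.2% and 4.36% of all probe sets).

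Signs turned for 16 of the 36 named genes in some of the 13 settings. Quantile normalization gave -0.0077 for SLC39A14, median centring 0.0344 for SLC1A5, 0.0014 for SLC35F5 and 0.0077 for SLC45A2, and the mean over probe sets 0.0185 for SLC26A11 and 0.0919 for SLC46A1. Leaving out 1 pool, log2 differences ranged from -0.37 to 0.29 for SLC16A3, -0.17 to 0.44 for SLC2A4RG, -0.0207 to 0.26 for SLC38A10, -0.29 to 0.22 for SLC45A2, -0.0616 to 0.49 for SLC6A8, -0.13 to 0.12 for SLC1A5, -0.33 to 0.20 for SLC35D2, -0.36 to 0.40 for SLC39A14, -0.23 to 0.11 for SLC9A3R1, -0.0385 to 0.97 for SLC16A13, -0.10 to 0.33 for SLC25A4, -0.67 to 0.26 for SLC2A2, -0.0783 to 0.0041 for SLC35F5 and -0.10 to 0.44 for SLC2A1. The cause was not tested.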

Other observations

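In the carnitine and control livers 5 further probe sets carried a solute carrier symbol together with another entry and were left out of all counts. Those of SLC23A3, a relative of the ascorbate transporters, had 294 and 384 with carnitine against 251 and 308 on the control diet, 584 and 850 against 705 and 647, and 46.2 and 51.7 against 58.5 and 36.6, overlapping between diets in each case. Those annotated to both SLC12A8 and EIF3G had 190 and 271 with carnitine against 143 and 145 on the control diet, and 2455 and 2039 against 2666 and 2668. The pools were separate on both, but in opposite directions.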
